A study of Mus musculus with 15 samples.

Results

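The collagen genes are the 44 genes of the expression table whose symbol has the form Col, a type number, the letter a and a chain number, out of 24346 genes in all. They were chosen by symbol alone, with no measured value. Collagens are the fibrous and sheet-forming proteins of the extracellular matrix. Their alpha chains wind around each other into a rope-like helix inside the endoplasmic reticulum, after enzymes have added hydroxyl groups to proline and lysine, and are then secreted, trimmed and crosslinked. Fibrillar types form the tension-bearing fibrils of connective tissue, type IV forms the sheet of basement membranes, and the FACIT types (fibril-associated collagens with interrupted helices) decorate fibrils. Transmembrane types stay anchored in the plasma membrane until they are shed. In the brain, collagen is best known from the meninges and from the basement membranes of blood vessels, and the space between neurons and glia holds little fibrillar collagen.

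The study measured total RNA by RNA sequencing in cells from the brain of C57BL/6 mice, with 3 libraries in each of 5 groups. The groups were astrocytes at day 0 (D0), cells labelled as chemical-induced neurons at day 4 (D4), day 8 (D8) and day 16 (D16), and primary neurons (PN). The sources used here name neither the compounds nor the age of the mice nor the purification of the astrocytes. The labels also leave unsaid whether the libraries of a group are separate cultures, and all p-values therefore speak of the spread among these libraries alone, which may be technical. Values are FPKM (fragments per kilobase of gene, scaled to the depth of the library), which can be compared between genes because they are divided by gene length. The tests covered the 13983 genes with 3 or more libraries at 1 FPKM or above. Changes are differences of mean log2(FPKM + 1), on which low genes change less than their true ratio, and a gene is said to have risen or fallen where limma's adjusted p was under 0.05 and the change was 1 or larger in size.

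The labels were checked with marker genes. Gfap, the astrocyte filament protein, averaged 559.6 ± 239 FPKM (SD, n = 3) at D0 and 4.22 ± 6.68 at D16, and Snap25, a synaptic vesicle fusion protein, averaged 0.183 ± 0.289 at D0, 172 ± 39.2 at D16 and 195 ± 83.4 in PN. Of 8 astrocyte markers the sum was 689 to 1606 FPKM at D0, 51.0 to 59.3 at D16 and 144 to 267 in PN. Of 8 neuron markers it was 273 to 388 at D0, mostly from Stmn2 with a mean of 304, then 773 to 866 at D16 and 3102 to 4302 in PN. The D0 libraries also held high levels of some smooth-muscle genes. The summed level of 6 smooth-muscle markers was 2078 to 8438 FPKM at D0, 23.8 to 53.0 at D4, 11.02 to 11.4 at D8, 5.83 to 11.6 at D16 and 1.41 to 77.6 in PN. Of these 6 genes, 4 averaged at least 1 FPKM at D0, led by Tagln at 2246 FPKM. Myh11 stood at only 0.470, 1.19 and 0.370 FPKM in D0 and 0.922, 1.35 and 1.47 at D16, and Des at 0.0936, 0.343 and 0.152 in D0. Acta2, smooth-muscle actin, stood at 749.8, 3761 and 1339 FPKM in the D0 libraries and at 0.165, 0.130 and 31.2 in PN, so that D0 replicate 2 and PN replicate 3 stood apart within their groups. The sum of 12 meningeal fibroblast markers was 322 to 689 FPKM at D0, 75.7 to 83.7 at D4, 66.8 to 71.7 at D8, 65.8 to 109 at D16 and 8.32 to 30.6 in PN. Of these 12 genes, 6 averaged at least 1 FPKM at D0, led by Fmod at 196 FPKM, while Lum and Slc6a13 were listed at 0 in all D0 libraries. From D0 to D16, 4 of the 10 tested fell (Fmod, Islr, Ogn and Foxc1) and 3 rose (Aldh1a2, Pdgfra and Tbx18), where 18.7% of all genes tested fell and 16.6% rose, and Twist1 averaged 49.4 and 53.9 FPKM and did not pass. Pericyte markers summed to 16.2 to 27.6 FPKM at D0, with Higd1b listed at 0, and endothelial markers to 2.002 to 4.03, with Emcn listed at 0. Whether cells of these types were present, and their part in the collagen levels, was not tested. In bulk samples fewer cells of a type and less RNA per cell cannot be told apart.

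Stretches of sequence just upstream of 4 collagen genes are shown because their genes carry the patterns described below. Col8a1 had the largest fall at each induced time, Col4a5 and Col4a6 are a head-to-head pair that fell together, and Col3a1 was close to 0 beside its highly expressed neighbour Col5a2. They are RefSeq sequences of mouse GRCm38.p6, written 5′ to 3′ on the strand of the gene. They lie outside annotated exons, and end at the start site for Col8a1 and Col3a1, 49 bases before it for Col4a5 and 19 bases before it for Col4a6. Capitals mark CCAAT in Col4a5 (bases -196 to -192 from the start), and in Col3a1 first the reverse complement of GGAATG (-168 to -163) and then TATAAA (-117 to -112). The first lies at chr16:57754738-57754987 (minus strand), the others in order at chrX:141475169-141475369 (plus), chrX:141474096-141474326 (minus) and chr1:45311288-45311537 (plus).
Col8a1: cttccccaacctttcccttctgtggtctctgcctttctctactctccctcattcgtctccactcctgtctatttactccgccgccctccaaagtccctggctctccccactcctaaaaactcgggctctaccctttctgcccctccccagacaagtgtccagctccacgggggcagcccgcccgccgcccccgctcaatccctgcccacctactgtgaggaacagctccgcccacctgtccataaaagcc
Col4a5: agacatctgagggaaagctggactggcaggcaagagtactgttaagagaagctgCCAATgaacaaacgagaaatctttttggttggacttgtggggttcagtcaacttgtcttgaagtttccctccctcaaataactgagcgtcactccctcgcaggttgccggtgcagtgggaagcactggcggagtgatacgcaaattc
Col4a6: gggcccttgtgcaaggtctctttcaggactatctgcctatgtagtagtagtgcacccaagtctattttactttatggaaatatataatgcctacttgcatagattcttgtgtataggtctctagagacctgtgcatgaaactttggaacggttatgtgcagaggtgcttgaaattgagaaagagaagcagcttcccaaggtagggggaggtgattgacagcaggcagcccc
Col3a1: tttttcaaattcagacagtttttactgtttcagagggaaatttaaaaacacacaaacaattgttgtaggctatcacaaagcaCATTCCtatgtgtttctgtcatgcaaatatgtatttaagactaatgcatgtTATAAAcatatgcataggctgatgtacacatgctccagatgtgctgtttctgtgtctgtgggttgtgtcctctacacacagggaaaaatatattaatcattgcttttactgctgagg
Col8a1 and Col4a6 show none of the searched motifs in the stretch printed.

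The RefSeq table held windows for 35 of the 44 genes, 38 windows in all because some genes have more than 1 start. In the 250 bases before the start, on both strands, CCAAT, the box bound by the factor NF-Y, occurred in 13 of 38 collagen windows (34.2%) against 33.9% of 32851 windows of all genes. Among the genes that fell at D4, D8 and D16 it occurred in 6 of 11 windows, from 10 genes. Genes that rose at all these times had it in 1 of 2 windows, and genes that passed at some times in 3 of 6. Genes that passed at none had it in 0 of 4 windows, and untested genes in 3 of 15. These counts are small and were not tested. TATAAA occurred in 5 of 38 collagen windows (13.2% against 12.4% of all), GGAATG, the element bound by TEAD factors, in 4 (10.5% against 12.6%), TGANTCA, the AP-1 element, in 1 (2.63% against 6.75%), and the CArG box, bound by serum response factor, in 1 (2.63% against 1.47%). A match is a stretch of letters only and shows no binding.

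Collagen RNA was concentrated in D0. The 44 genes together made up 0.125% ± 0.0304 (SD, n = 3) of the summed FPKM of a library at D0, 0.0226% ± 0.00619 at D4, 0.0176% ± 0.00862 at D8, 0.0183% ± 0.00456 at D16 and 0.00915% ± 0.00355 in PN. The lowest D0 library, at 0.0907%, lay above the highest of any other group, which was 0.0291% at D4. The composition differed as well as the amount. Fibrillar chains took 0.0638% of the summed FPKM at D0, type IV chains 0.0267% and transmembrane chains 0.000300%. At D16 the fibrillar chains took 0.00530%, the type IV chains 0.00208% and the transmembrane chains 0.00376%, the transmembrane share being the only one of the classes besides the small anchoring and other class that had a higher mean at D16 than at D0. The leading gene was Col5a2 in D0 (15.1% to 26.6% of the collagen sum), Col18a1 at D4 (19.2% to 28.5%), Col23a1 at D16 (14.2% to 18.9%) and Col26a1 in PN replicates 1 and 2 (36.2% and 24.7%), while in PN replicate 3 it was Col5a2 at 17.0%.

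**Figure D1:**
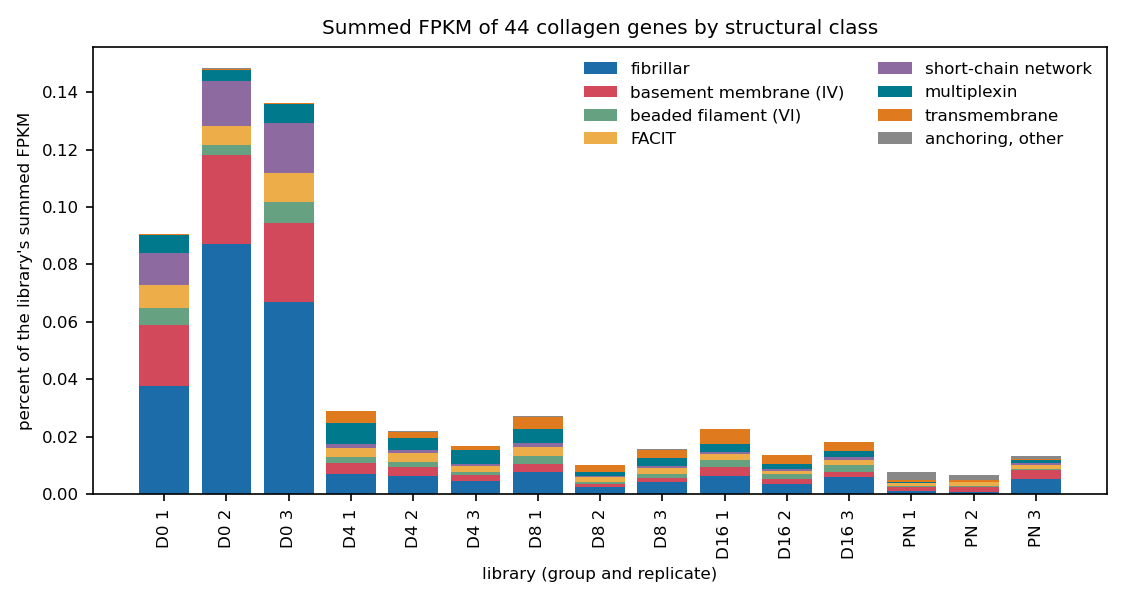
Stacked bars give the summed FPKM of the 44 collagen genes as a percent of each library's summed FPKM, coloured by structural class, for the 15 libraries. The 3 D0 bars reach 0.0907% to 0.148%, and no other bar passes 0.0291%.

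Of the 44 genes, 29 entered the tests, and 15 were too low. Against D0, 4 of the 29 rose and 15 fell at D4, where 13.6% of all genes tested rose and 14.2% fell. At D8 the counts were 4 up (15.5% of all genes) and 16 down (16.9%), at D16 4 up (16.6%) and 16 down (18.7%), and in PN 2 up (17.1%) and 17 down (23.9%). The median change of the 29 genes was -1.39 at D4, -1.54 at D8, -1.26 at D16 and -2.21 in PN, and that of all genes tested was -0.01, 0.00, -0.01 and -0.12. These comparisons share the D0 libraries. The ranges of the groups compared did not overlap for 23 of the 29 genes at D4 (62.6% of all genes), 24 at D8 (65.5%), 23 at D16 (66.8%) and 19 in PN (68.2%), which for PN is close to the share of all genes. At all 3 induced times 14 genes fell, namely Col1a1, Col1a2, Col2a1, Col5a2, Col11a1, Col4a1, Col4a2, Col4a5, Col4a6, Col6a1, Col6a2, Col8a1, Col12a1 and Col16a1. Col14a1, Col23a1 and Col25a1 rose at all 3. Col18a1, Col27a1, Col5a1, Col5a3 and Col7a1 passed at some of the times, and Col8a2, Col9a2, Col9a3, Col11a2, Col20a1, Col22a1 and Col26a1 at none. Without D0 replicate 2 and PN replicate 3, 5 rose and 15 fell at D16, and 1 rose and 17 fell in PN.

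**Figure D2:**
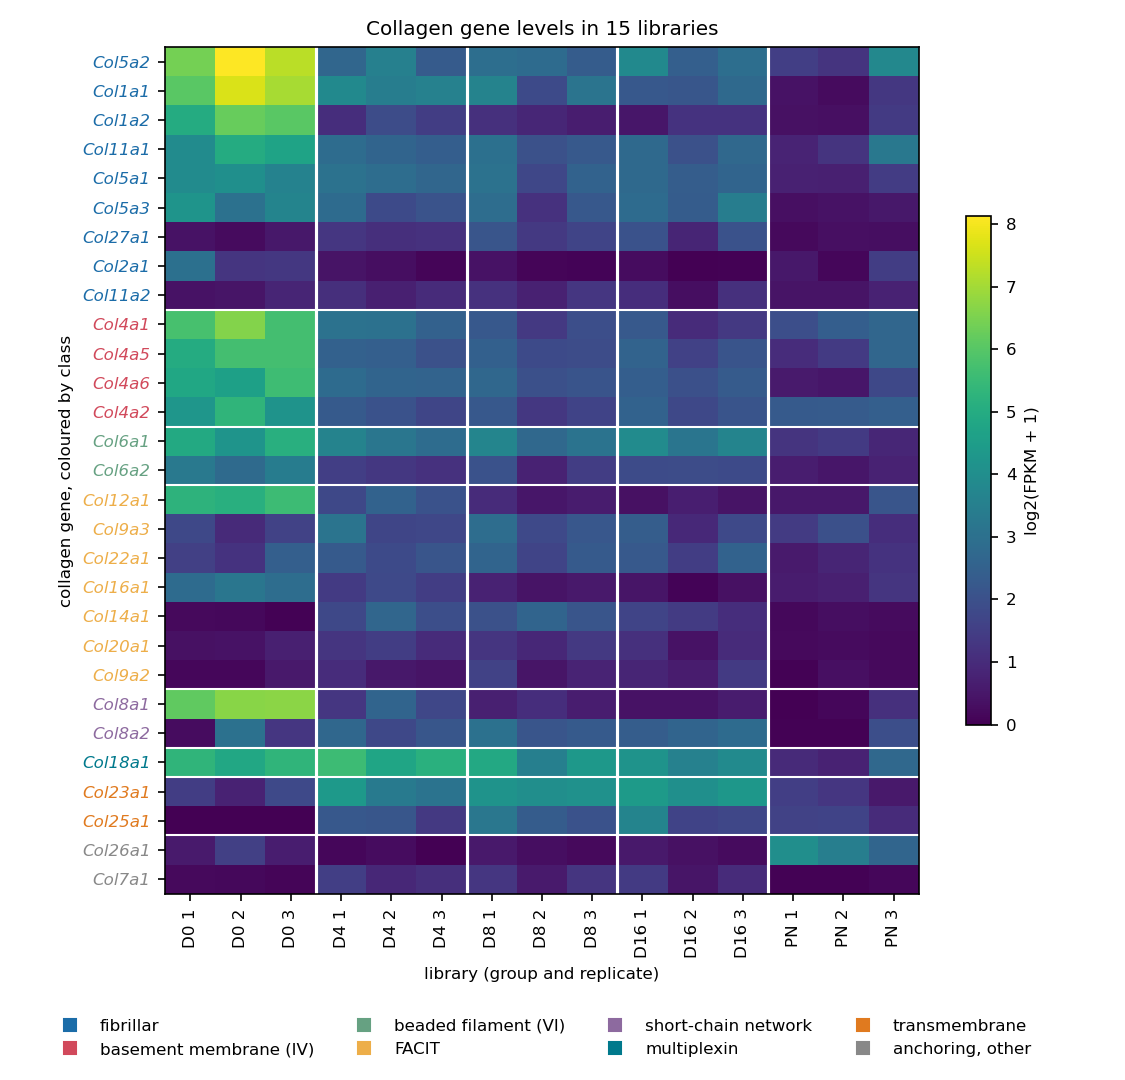
The colour scale gives log2(FPKM + 1) of the 29 tested collagen genes, grouped by structural class from top to bottom, in the 15 libraries from left to right. The type IV genes shown and the fibrillar genes Col1a1, Col1a2, Col5a1, Col5a2 and Col11a1 are brightest in the 3 D0 columns. Col23a1, Col25a1 and Col14a1 are brighter in the induced columns than in D0, and Col26a1 is brightest in the PN columns.

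Among the fibrillar chains the 3 most abundant at D0 fell together. Col5a2, a type V chain that joins type I fibrils and limits their width, stood at 85.8, 278 and 153 FPKM in D0, 5.41, 10.5 and 4.05 at D4, 6.62, 6.13 and 4.16 at D8, 13.5, 4.54 and 6.58 at D16 and 1.83, 1.34 and 12.9 in PN. Every D0 library lay above every other library, and PN replicate 3 was far above the other PN libraries. The log2 change was -4.20 ± 0.58 SE (limma adjusted p = 1.68e-05) at D16 and -5.10 ± 0.58 SE (limma adjusted p = 1.54e-06) in PN. Col1a1, the major chain of type I collagen, read 65.7, 202 and 133 FPKM in D0, 13.4, 9.80 and 10.9 at D4, 11.5, 2.53 and 7.81 at D8, 3.69, 3.55 and 5.85 at D16 and 0.310, 0.192 and 1.49 in PN. Its D0 values overlapped with no other group, and all PN values lay below all D16 values. Its log2 change from D0 was -3.31 at D4, -4.06 at D8, -4.53 at D16 and -6.28 in PN (limma adjusted p = 1.73e-05 to 7.57e-09). Col1a2, the minor chain of the same protein, had 31.1, 75.00 and 65.5 FPKM in D0, 1.10, 2.74 and 1.81 at D4, 1.19, 0.828 and 0.579 at D8, 0.392, 1.27 and 1.26 at D16 and 0.291, 0.253 and 1.58 in PN. D0 stood clear of the rest, which overlapped one another, and the log2 change at D16 was -4.82 ± 0.35 SE (limma adjusted p = 1.99e-08).

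Relative to Col1a2, Col1a1 stood higher at D4 than in D0. The FPKM ratio of Col1a1 to Col1a2 was 2.11, 2.69 and 2.03 in D0 and 12.2, 3.58 and 6.05 at D4. Where both chains reached 1 FPKM it was 9.66 in 1 library at D8, 2.81 and 4.63 in 2 libraries at D16 and 0.940 in PN replicate 3. The ranges of D0 and D4 did not overlap. Type I collagen is usually built with an excess of the first chain, and no test was made of the ratios.

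The other fibrillar chains had smaller changes. Col11a1, a type XI chain found in the core of thin fibrils, had 14.1, 30.96 and 25.4 FPKM in D0, 6.25, 5.19 and 4.37 at D4, 6.92, 3.02 and 3.84 at D8, 5.83, 3.02 and 5.67 at D16 and 0.750, 1.32 and 8.56 in PN. D0 did not overlap with any group, the log2 change at D16 was -2.04 ± 0.49 SE (limma adjusted p = 0.00205), and PN replicate 3 was again the highest of the PN libraries. Col5a1, the other main type V chain, had 14.1, 15.6 and 11.2 FPKM in D0, 7.27, 6.55 and 5.45 at D4, 7.30, 2.30 and 4.89 at D8, 5.88, 4.21 and 5.17 at D16 and 0.675, 0.626 and 1.75 in PN. The groups D0, induced and PN formed 3 levels without overlap, with changes from D0 of -0.98 at D4, just short of the minimum size, -1.26 at D16 and -2.89 in PN. Col5a3, a type V chain of restricted expression, had 17.5, 7.19 and 11.7 FPKM in D0, 6.24, 2.53 and 3.18 at D4, 6.50, 1.21 and 3.67 at D8, 6.10, 4.19 and 9.89 at D16 and 0.260, 0.314 and 0.449 in PN. Its D16 values overlapped with D0 (log2 change -0.75 ± 0.41 SE, limma adjusted p = 0.124), while all PN values were under 0.5 FPKM (log2 change -3.21 ± 0.41 SE, limma adjusted p = 5.18e-06). Its fall at D4 was lost without D0 replicate 1.

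The remaining tested fibrillar chains were low. Col2a1, the main collagen of cartilage, ranged from 1.37 to 6.96 FPKM in D0 and from 0 to 0.205 at D16. It fell at D16 (log2 change -1.74 ± 0.39 SE, limma adjusted p = 0.00124), but D0 replicate 1 held most of the D0 signal, and without it the fall at D4 was -0.99 and the fall in PN -0.56, neither of which passed. Col27a1, a fibrillar chain of growing cartilage, ranged from 0.171 to 0.448 FPKM in D0, 1.14 to 1.43 at D4, 1.57 to 3.37 at D8, 0.774 to 3.12 at D16 and 0.148 to 0.248 in PN. It rose at D8 (log2 change 1.33 ± 0.27 SE, limma adjusted p = 0.000681) and at D16 (log2 change 1.25 ± 0.27 SE, limma adjusted p = 0.00106), against the direction of the major fibrillar chains, with all induced libraries above all D0 and PN libraries. After quantile normalization the rise at D16 was 0.94 and no longer passed. Col11a2, another type XI chain, ranged from 0.312 to 0.777 FPKM in D0 and from 0.222 to 1.18 at D16 and passed in none of the comparisons.

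Type III collagen was at or near 0 beside abundant type V. Col3a1, the fibrillar chain that accompanies type I in most soft connective tissues, had 0.182, 1.59 and 0.562 FPKM in D0, was listed at 0 in all 9 induced libraries and had 0.0536, 0.177 and 1.35 in PN. Its neighbour Col5a2 lies 24624 bases away on chromosome 1. In D0 replicate 2, the D0 library in which Col3a1 reached 1 FPKM, its ratio to Col5a2 was 0.00570. By comparison, 10 housekeeping genes were at 8.09 FPKM or more in every library. They were picked as highly expressed genes, so they cannot show whether a gene as low as Col3a1 would be listed at 0.

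All 4 tested chains of type IV, the basement membrane collagen, fell at every induced time and in PN. Col4a1, which with Col4a2 builds the form found in nearly every basement membrane, had 53.4, 97.1 and 50.5 FPKM in D0, 7.32, 7.11 and 4.77 at D4, 3.74, 1.56 and 2.88 at D8, 3.77, 1.01 and 1.52 at D16 and 2.89, 4.41 and 5.40 in PN. Col4a2 had 18.3, 38.5 and 16.9 FPKM in D0, 3.91, 3.16 and 2.27 at D4, 3.69, 1.51 and 2.13 at D8, 4.89, 2.38 and 3.30 at D16 and 3.97, 4.04 and 4.45 in PN. Neither gene's D0 values overlapped with another group. The log2 changes at D16 were -4.49 ± 0.34 SE (limma adjusted p = 2.85e-08) for Col4a1 and -2.44 ± 0.30 SE (limma adjusted p = 5.43e-06) for Col4a2.

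The level of Col4a1 relative to Col4a2 was lower at each later time. The FPKM ratio of Col4a1 to Col4a2 was 2.92, 2.52 and 2.995 in D0, 1.87, 2.25 and 2.10 at D4, 1.01, 1.03 and 1.35 at D8, 0.771, 0.425 and 0.460 at D16 and 0.728, 1.09 and 1.22 in PN. The ranges of D0, D4, D8 and D16 followed each other downward without overlap, and the PN range overlapped with those of D8 and D16. This is a description with no test. The 2 genes stand head to head on chromosome 8, where their RefSeq spans share 85 bases, and the sources used here do not say whether the counting used strand, so reads in that stretch are of uncertain origin.

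Col4a5 and Col4a6, the X-linked type IV chains that build another network in some basement membranes, likewise fell at all times. Col4a5 had 30.9, 50.9 and 50.5 FPKM in D0, 4.72, 4.54 and 3.06 at D4, 4.57, 2.55 and 2.73 at D8, 4.98, 1.97 and 3.34 at D16 and 1.03, 1.63 and 5.37 in PN. Col4a6 had 27.7, 23.5 and 47.99 FPKM in D0, 6.13, 5.18 and 4.97 at D4, 5.59, 2.92 and 3.31 at D8, 4.35, 2.98 and 4.04 at D16 and 0.512, 0.406 and 2.37 in PN. D0 lay above all other groups for both, and Col4a6 was also higher in every D16 library than in every PN library. Log2 changes at D16 were -3.37 ± 0.37 SE (limma adjusted p = 1.51e-06) for Col4a5 and -2.78 ± 0.32 SE (limma adjusted p = 2.66e-06) for Col4a6. Their RefSeq spans lie 1274 bases apart on the X chromosome, with the printed stretches between them. The untested chains Col4a3 and Col4a4, known from the kidney filter, had 0.400, 5.80 and 0.854 and 0.431, 4.47 and 0.818 FPKM in the D0 libraries, with D0 replicate 2 far above the other 2, and none of the other 12 libraries passed 0.283 FPKM for either gene. The spans of Col4a3 and Col4a4 share 114 bases on chromosome 1, where reads are likewise of uncertain origin.

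Type VI, which forms beaded filaments around cells, showed an intermediate level at D16. Col6a1 had 29.7, 17.5 and 33.5 FPKM in D0, 11.3, 8.20 and 6.34 at D4, 12.1, 5.64 and 7.58 at D8, 14.00, 8.02 and 11.6 at D16 and 1.34, 1.61 and 0.841 in PN. Col6a2 had 8.64, 5.99 and 9.68 FPKM in D0, 1.87, 1.46 and 1.24 at D4, 3.17, 0.709 and 1.81 at D8, 2.58, 2.69 and 2.52 at D16 and 0.561, 0.418 and 0.723 in PN. For Col6a1 and Col6a2 alike, D0 was highest and PN lowest, with D16 between them and no overlap. At D8, Col6a2 overlapped with PN, through D8 replicate 2 at 0.709. Col6a1 changed by -1.18 at D16 (limma adjusted p = 0.00273) and by -3.59 in PN (3.97e-08). Col6a2 changed by -1.32 (0.000399) and -2.52 (4.50e-07). Without D0 replicate 3 the change of Col6a1 at D16 was -0.996, and without D16 replicate 2 it was -0.97, both short of the minimum size. The chain that completes the common type VI protein, Col6a3, was not tested and did not pass 0.330 FPKM in any library, and Col6a4, Col6a5 and Col6a6 did not pass 0.0396, 0.136 and 0.0471 FPKM.

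**Figure D3:**
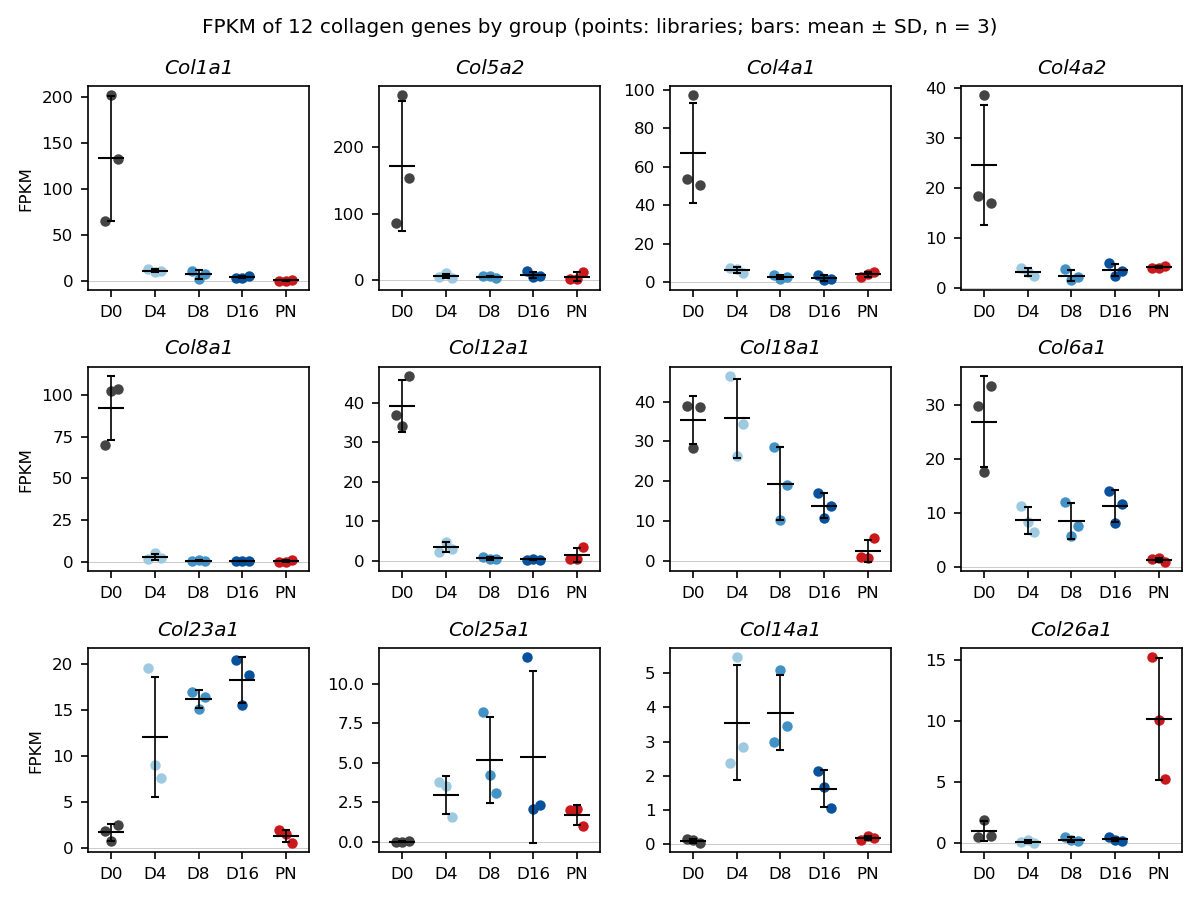
Each panel gives the FPKM of 1 of 12 collagen genes in the 3 libraries of each group (points) with the mean and SD (bars), on linear axes from 0. Col1a1, Col5a2, Col4a1, Col4a2, Col8a1 and Col12a1 are high in D0 alone, Col23a1 is high in the induced groups alone, and Col26a1 in PN alone.

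The FACIT chains split. Col12a1, which binds type I fibrils in tissues under tension, had 36.97, 34.1 and 46.7 FPKM in D0, 2.36, 4.89 and 3.12 at D4, 0.982, 0.397 and 0.526 at D8, 0.274, 0.602 and 0.355 at D16 and 0.434, 0.430 and 3.45 in PN. It fell in steps, with every D8 library under every D4 library, and its log2 change at D16 was -4.83 ± 0.35 SE (limma adjusted p = 2.17e-08). Col16a1, a FACIT chain of skin and other matrices, had 6.16, 8.14 and 6.46 FPKM in D0, 1.58, 2.44 and 1.79 at D4, 0.713, 0.352 and 0.472 at D8, 0.387, 0.0641 and 0.282 at D16 and 0.537, 0.637 and 1.38 in PN. D0, D4 and D8 formed descending levels without overlap, and the log2 change at D16 was -2.67 ± 0.20 SE (limma adjusted p = 2.51e-08).

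Col14a1, a FACIT chain that binds fibril surfaces, went the other way. It ranged from 0.0344 to 0.156 FPKM in D0, 2.37 to 5.47 at D4, 2.998 to 5.08 at D8, 1.07 to 2.14 at D16 and 0.123 to 0.241 in PN. Every induced library lay above every D0 and PN library. The log2 change was 1.99 at D4, 2.11 at D8 and 1.23 at D16 (limma adjusted p = 5.61e-06, 2.07e-06 and 0.000330), and the last was 0.93 after quantile normalization and no longer passed. Col9a2 and Col9a3, type IX chains of cartilage, Col20a1 and Col22a1, a chain of tissue junctions, passed in none of the comparisons with D0, with group means of at most 1.04, 4.16, 1.40 and 3.73 FPKM.

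Col8a1, a short-chain collagen of vessel walls and of the membrane under the corneal endothelium, had the largest fall at each induced time among the 29 genes. Its values were 70.1, 103 and 104 FPKM in D0, 1.46, 5.11 and 2.33 at D4, 0.640, 1.11 and 0.558 at D8, 0.305, 0.310 and 0.552 at D16 and 0.0196, 0.114 and 1.17 in PN. D0, D4, D8 and D16 formed 4 descending levels without overlap, and the log2 change reached -6.05 ± 0.32 SE (limma adjusted p = 9.37e-10). Its partner chain Col8a2 did not follow. Col8a2 had 0.215, 7.10 and 1.44 FPKM in D0, 5.50, 2.40 and 3.53 at D4, 7.13, 3.42 and 3.96 at D8, 4.23, 5.14 and 6.18 at D16 and 0.0350, 0.0314 and 2.88 in PN. Its D0 libraries spread widely and overlapped with every other group, and no comparison with D0 passed (log2 change 1.09 ± 0.58 SE, limma adjusted p = 0.117). At D16 Col8a2 exceeded Col8a1 in all 3 libraries, and in D0 Col8a1 exceeded Col8a2 in all 3.

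Col18a1, the source of the fragment endostatin and a part of vascular and epithelial basement membranes, fell late. It had 38.97, 28.3 and 38.8 FPKM in D0, 46.4, 26.4 and 34.5 at D4, 28.7, 10.4 and 19.1 at D8, 16.98, 10.8 and 13.7 at D16 and 0.942, 0.703 and 5.66 in PN. D0 and D4 overlapped, the D16 libraries lay below all D0 libraries, and the PN libraries lay below all others. The change was 0.00 at D4, -0.93 at D8 (limma adjusted p = 0.0782), -1.30 at D16 (0.0166) and -3.68 in PN (2.13e-06). Without D16 replicate 2 the D16 change was -1.15 with an adjusted p of 0.060.

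Of the 4 transmembrane chains, the 2 tested rose at every induced time, while Col13a1 and Col17a1 were too low to test. Col23a1, a membrane collagen whose outer part can be shed, had 1.80, 0.700 and 2.48 FPKM in D0, 19.5, 8.98 and 7.58 at D4, 16.9, 15.1 and 16.4 at D8, 20.4, 15.5 and 18.8 at D16 and 1.86, 1.43 and 0.484 in PN. Every induced library was above every D0 and PN library, while D0 and PN overlapped. The log2 change was 2.91 ± 0.32 SE (limma adjusted p = 1.83e-06) at D16, and in PN it was -0.23 ± 0.32 SE (limma adjusted p = 0.563). Col25a1, a neuronal membrane collagen first described as a component of amyloid plaques, had 0, 0 and 0.0164 FPKM in D0, 3.76, 3.50 and 1.56 at D4, 8.23, 4.20 and 3.10 at D8, 11.7, 2.09 and 2.34 at D16 and 2.02, 2.07 and 0.979 in PN. It rose at D16 (log2 change 2.34 ± 0.45 SE, limma adjusted p = 0.000318) and in PN (log2 change 1.39 ± 0.45 SE, limma adjusted p = 0.0124), the only collagen gene to pass as higher than D0 in both, and D16 replicate 1 was more than the other 2 D16 libraries together. With D0 values at or near 0, the size of these changes depends on the value added before the logarithm.

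Col26a1 was highest in the primary neurons. This secreted protein, first cloned from testis and ovary, had 0.501, 1.92 and 0.567 FPKM in D0, 0.0998, 0.219 and 0 at D4, 0.479, 0.231 and 0.151 at D8, 0.462, 0.292 and 0.191 at D16 and 15.2, 10.1 and 5.23 in PN. All PN libraries lay above all others, and the induced libraries lay below all D0 libraries. The log2 change in PN was 2.45 ± 0.30 SE (limma adjusted p = 3.38e-06), and at D16 it was -0.54 ± 0.30 SE (limma adjusted p = 0.134). Col7a1, the anchoring fibril collagen of skin, had group means of 0.123 ± 0.0456 FPKM in D0 and 1.28 ± 0.497 at D4. Its log2 change at D4 was 1.0001 ± 0.24 SE (limma adjusted p = 0.00246), at the edge of the minimum size, and the call was lost in 4 of the alternative analyses.

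**Figure D4:**
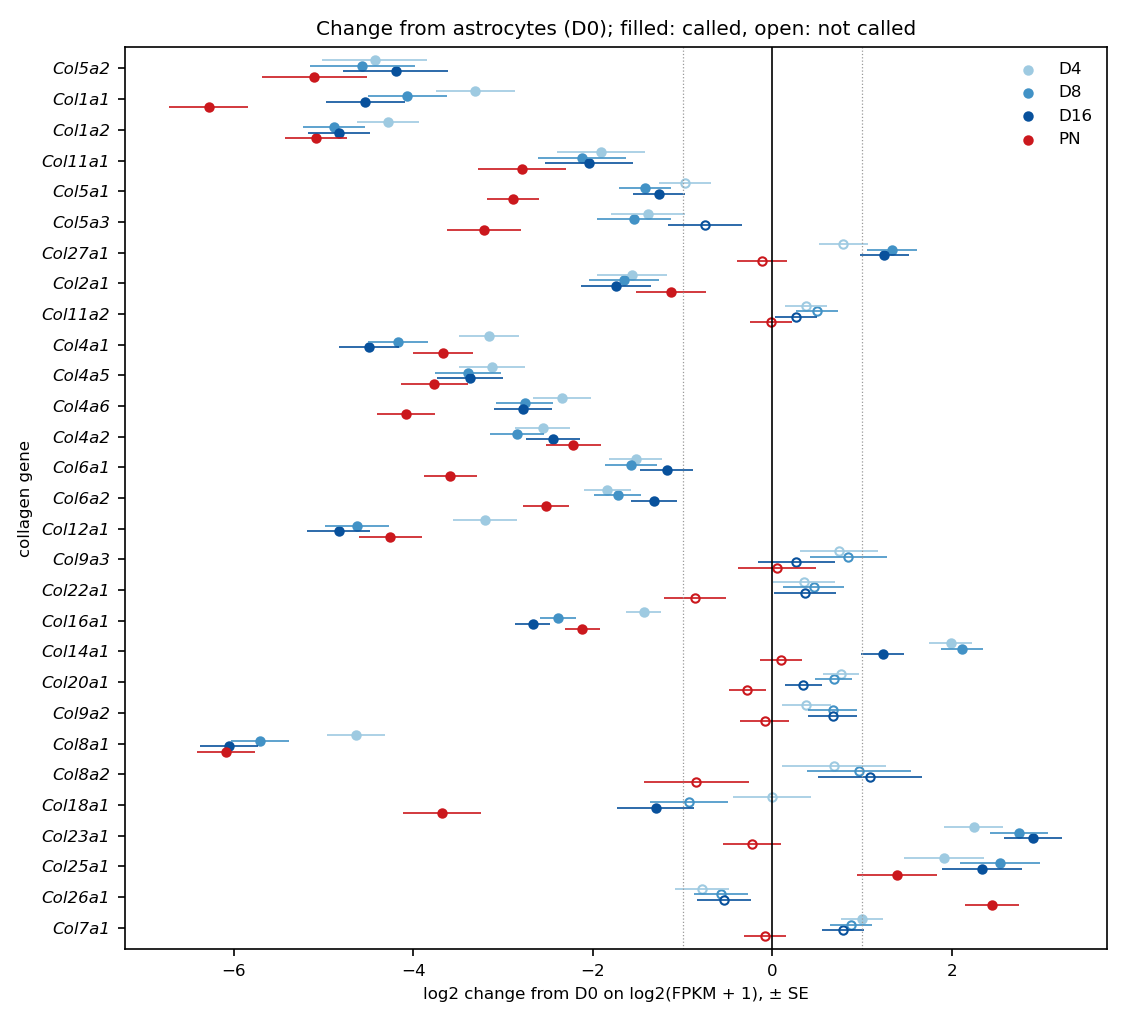
Points give the log2 change from D0 of the 29 tested collagen genes at D4, D8, D16 and in PN, with bars of 1 SE, filled where the gene passed and open where it did not. Col8a1, Col12a1, Col1a2, Col1a1, Col4a1 and Col5a2 lie furthest to the left at all 3 induced times, and Col23a1, Col25a1 and Col14a1 lie to the right at the same times.

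The other untested genes were low throughout. Col10a1, the collagen of hypertrophic cartilage, reached 0.895 FPKM in PN replicate 1, Col19a1 1.29 in PN replicate 2 and Col9a1 1.47 in D0 replicate 3. Col13a1, Col15a1, Col17a1, Col24a1 and Col28a1 did not pass 0.665 FPKM in any library. Col19a1 ranged from 0.643 to 1.29 FPKM in PN, above all 12 other libraries, none of which passed 0.192. Col15a1 ranged from 0.234 to 0.665 in PN.

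Few collagen genes passed in the steps between induced times. Between D4 and D8, 1 of the 29 genes fell (1.51% of all genes tested fell) and 0 rose (0.501%). Those shares rest on 211 lower and 70 higher genes, which became 131 and 41 without D4 replicate 2, and the higher count was 40 without D4 replicate 3 and 44 without D8 replicate 3. The collagen gene was Col12a1 (log2 change -1.42 ± 0.35 SE, limma adjusted p = 0.0374), and it was lost in 9 of 25 alternative analyses. Col16a1 changed by -0.95 ± 0.20 SE (limma adjusted p = 0.0133) on the log2 scale in the same step, just under the minimum size. Col8a1 and Col4a1 changed by -1.07 and -1.02 without overlap and did not pass (limma adjusted p = 0.0920 and 0.140). Col27a1 changed by 0.54, also without overlap, and did not pass (limma adjusted p = 0.397). Between D8 and D16 limma found 0 collagen genes higher (0.0215% of all genes) and 0 lower (0.00715%), with 1 of the 29 at an unadjusted p under 0.05. Ranges did not overlap for 5 of the 29 genes in the first step (23.6% of all genes) and for 2 in the second (18.4%). For the 14 genes that fell at every induced time, the difference from D0 was -1.43 or more negative at D4. A fall at D4 was part of the rule that picked these genes, so it shows nothing about how early collagen genes fell.

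The comparison of D16 with PN sets the latest induced cells beside the primary neurons. Of the 29 genes, 12 were higher at D16 (19.6% of all genes tested were) and 1 was lower (15%), and the median change was 0.87 against 0.06 over all genes. Ranges did not overlap for 18 of the 29 genes, against 65.3% of all genes. The largest difference was that of Col23a1 (log2 change 3.13 ± 0.32 SE, limma adjusted p = 8.55e-07), followed by Col5a3 (2.46), Col6a1 (2.41), Col18a1 (2.38), Col8a2 (1.93), Col1a1 (1.74) and Col5a1 (1.63). Col27a1, Col4a6, Col22a1, Col6a2 and Col14a1 were higher by 1.14 to 1.36. Of these, Col4a6, Col6a2, Col14a1 and Col22a1 no longer passed after quantile normalization, Col14a1 also without D16 replicate 1 and Col22a1 without D16 replicate 3. Col26a1 was the gene lower at D16 (log2 change -2.99 ± 0.30 SE, limma adjusted p = 6.70e-07). Col8a1, Col1a2, Col4a2, Col4a5 and Col5a2 did not pass, with differences of 0.04, 0.26, -0.22, 0.39 and 0.91, which does not show that they were equal. Without D0 replicate 2 and PN replicate 3, 14 genes were higher and 0 lower, since Col26a1 then reached 1 FPKM in too few libraries to be tested.

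In PN and the induced groups, single libraries were highest or lowest for many of the 29 genes at once. The same count was not made over all genes tested, so it is not known to be particular to collagen genes. PN replicate 3 held the highest PN value of 20 of the 29 genes, and it was also the PN library with the highest Acta2 and Tagln, but it had the lowest PN value of Col26a1, Col23a1 and Col25a1. Replicate 1 held the highest value of 21 genes at D4, 25 at D8 and 19 at D16. D8 replicate 2 and D16 replicate 2 each held the lowest value of 22 genes. In D0, replicate 2 held the highest value of 11 genes and the lowest of 12. It was highest for Col1a1, Col1a2, Col5a2, Col4a1 and Col4a2, as for Acta2, and lowest for genes such as Col6a1 and Col4a6.

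Genes that make, export, trim, crosslink, bind and degrade collagen were followed as 7 lists with 76 genes, of which 68 were tested. At D16, 3 of them were higher (16.6% of all genes) and 37 lower (18.7%) than in D0. The counts were 5 (13.6%) and 27 (14.2%) at D4, 4 (15.5%) and 34 (16.9%) at D8, and 1 (17.1%) and 50 (23.9%) in PN. The median change of the 68 was -1.18 at D16 and -2.39 in PN.

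The enzymes that modify proline and lysine were in part lower at D16. Of 15 tested, 8 fell (18.7% of all genes tested fell) and 0 rose (16.6%). P4ha3, a catalytic subunit of prolyl 4-hydroxylase, fell from 34.5 ± 10.9 to 1.15 ± 0.250 FPKM (SD, n = 3; log2 change -3.999 ± 0.36 SE, limma adjusted p = 2.17e-07), P3h2, a prolyl 3-hydroxylase active on type IV collagen, changed by -2.62, and P4ha1, the main catalytic subunit, by -2.19 on the log2 scale. P4hb, the subunit that doubles as protein disulfide isomerase, averaged 220.0 ± 26.97 FPKM in D0, 202 ± 16.6 at D16 and 91.2 ± 30.3 in PN, and Ppib, a prolyl isomerase of the same compartment, 202 ± 19.6, 202 ± 43.5 and 139.9 ± 23.7. Neither passed at D16. Among chaperones and export factors, 3 of 10 fell and 0 rose, against the same shares of all genes, a difference that rests on few genes. Serpinh1, the collagen-specific chaperone HSP47, fell from 311 ± 177 to 66.9 ± 14.8 FPKM (log2 change -2.09 ± 0.43 SE, limma adjusted p = 0.000639). Fkbp10, a prolyl isomerase needed for type I collagen, fell with a log2 change of -2.05 and Sec23a, a coat protein of export vesicles, with -1.20, although Sec23a averaged 68.01 ± 9.51 in PN against 40.8 ± 2.96 in D0. Hspa5, the general chaperone BiP, averaged 359.9 ± 23.6 FPKM in D0 and 352 ± 57.6 at D16 and did not pass.

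Of 6 crosslinking enzymes, which act on secreted collagen, 5 fell (18.7% of all genes tested fell) and 0 rose (16.6%) at D16. The falls were led by Loxl1 (77.5 ± 32.9 to 1.24 ± 0.296 FPKM, log2 change -5.05 ± 0.39 SE, limma adjusted p = 3.47e-08), Loxl3 (-4.68) and Lox (-3.45), all of them lysyl oxidases. Loxl2 averaged 9.72 ± 2.21 FPKM at D16 against 18.8 ± 14.4 in D0 and did not pass. Of 7 propeptide processing genes 3 fell and 0 rose, against the same shares of all genes. Those that fell were Pcolce and Pcolce2, which enhance removal of the C-propeptide (-3.56 and -2.86), and Adamts14, an N-propeptidase (-2.997). Bmp1, the C-propeptidase itself, averaged 31.5 ± 4.54 FPKM in D0 and 45.02 ± 21.2 at D16 and did not pass. Adamts3, another N-propeptidase, averaged 4.11 ± 0.362 FPKM in PN.

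Of 7 collagen receptors 5 fell at D16 (18.7% of all genes tested fell) and 1 rose (16.6%). Itga1 and Itga11, collagen-binding integrin chains, fell (log2 change -3.70 and -2.23), as did Ddr1, a receptor tyrosine kinase for collagen (-2.16). Itgb1, the shared integrin beta chain, fell from 605 ± 110.4 to 229.6 ± 20.5 FPKM (log2 change -1.38 ± 0.21 SE, limma adjusted p = 3.77e-05). Mrc2, an endocytic receptor that takes up collagen fragments, rose from 1.04 ± 0.0574 FPKM in D0 to 14.7 ± 1.78 at D16 (log2 change 2.94 ± 0.27 SE, limma adjusted p = 1.93e-07) and averaged 0.268 ± 0.170 in PN. Among proteases and their inhibitors 7 of 10 fell and 1 rose at D16, against the same shares of all genes. The inhibitors Timp4, Timp3 and Timp2 fell (log2 change -3.76, -2.78 and -2.77). The list's other inhibitor, Timp1, ranged from 119 to 494 FPKM in D0, 470 to 1107 at D4, 329 to 1131 at D8 and 26.7 to 563 at D16. Its D16 libraries overlapped with D0, and in PN it ranged from 0.310 to 1.23 FPKM. Mmp9, a gelatinase, rose from 0.0666 ± 0.0337 to 1.52 ± 0.584 FPKM (log2 change 1.21 ± 0.22 SE, limma adjusted p = 0.000211). Mmp15, a membrane-bound protease, averaged 13.9 ± 2.16 FPKM in PN and did not pass at D16.

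In the list on the transforming growth factor beta signal, a growth factor pathway that raises collagen transcription in fibroblasts, 6 of 13 genes fell and 1 rose at D16. Of all genes tested, 18.7% fell and 16.6% rose. Ctgf, a matricellular target of the pathway, fell from 232 ± 110.3 to 2.11 ± 1.98 FPKM (log2 change -6.30 ± 0.82 SE, limma adjusted p = 8.18e-06), and Ltbp2, a fibrillin-related protein of elastic fibres, fell with a log2 change of -4.44. The ligand Tgfb1 rose from 11.5 ± 5.31 FPKM in D0 through 32.7 ± 16.9 at D4 and 57.97 ± 33.9 at D8 to 97.1 ± 32.1 at D16 (log2 change 2.999 ± 0.49 SE, limma adjusted p = 8.11e-05) and averaged 0.184 ± 0.108 in PN. Smad2, a signal transducer, averaged 8.07 ± 1.32 FPKM in D0 and 9.25 ± 1.62 at D16 and did not pass.

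**Figure D5:**
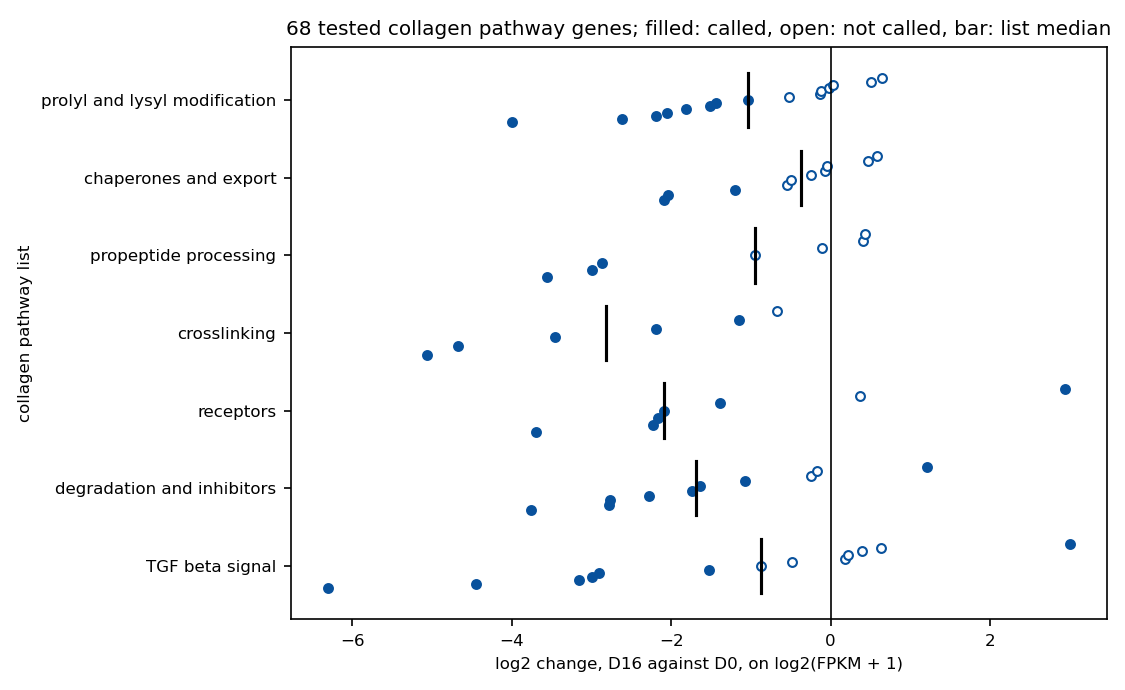
Each point is the log2 change from D0 to D16 of 1 of the 68 tested pathway genes, by list, filled where the gene passed, and the vertical bar is the median of the list. Crosslinking enzymes have the lowest median, and the filled points to the right of 0 are Mrc2, Mmp9 and Tgfb1.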

How the data were processed

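Total RNA of 15 libraries, 3 in each of 5 groups, was sequenced with paired reads, and the authors deposited 1 table of FPKM values with gene symbols. The genome build is mm10 or GRCm38, per the submitters' processing notes. For the aligner, the counting program, its annotation and its use of strand: not given in the sources used here. FPKM sums ranged from 548309 to 787080 per library. Read counts were not used here. The steps between low values gave relative depths of 0.707 to 2.03, with D0 replicate 1 at 1, so low genes are less precise in the shallower libraries. No pair of libraries held identical values.

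Groups were taken from the sample titles. With R 4.3.3 and limma 3.58.1, a group-means model was fitted to log2(FPKM + 1) over all 15 libraries with a variance trend, on 13983 genes with at least 1 FPKM in at least 3 libraries. Benjamini-Hochberg adjustment ran over all these genes within each of 7 comparisons, and a call needed an adjusted p under 0.05 with a change of 1 or larger in size. Tested on simulated data for D16 against D0 with 13983 genes, the fit recovered 40 of 100 genes changed 2-fold and 89 of 100 changed 4-fold, and called 5 of 13783 unchanged genes. A 2-fold change lies right at the minimum size, which alone loses many of them. Changes were planted only in genes that were not low in D0, and every group was drawn with the D0 spread. The recovery therefore does not cover low genes. The settings varied were the pseudocount (0.1), the filter (none, or 5 FPKM), an equal FPKM total, quantile normalization, a replicate block, fits on the compared groups alone, no variance trend, no minimum change, and leaving out each library. A fit without D0 replicate 2 and PN replicate 3 was added after seeing the data. Libraries of D4 and D8 with the same number deviated together (correlations of deviations 0.329 to 0.454, against -0.497 to 0.114 for other pairs), so these numbers pair those groups, which is a hint from the data and not from the labels.

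The 44 collagen genes were set by symbol, and the other genes and lists were chosen with earlier results of these data known. Values in all libraries are given for genes whose highest group mean is at least 5 FPKM, and others by range. From each pathway list the text names up to 3 genes that passed at D16 in each direction and 2 with the highest PN mean. Timp1 is named in addition to this rule. One gene that this rule selects is not reported here. Promoter motifs were searched with Python 3.11.15 in RefSeq windows of GRCm38.p6.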

Additional observations from a re-analysis of the deposited data

How the results depend on the processing

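None of the called collagen changes reversed direction in the alternatives run. Changes that were not called were not checked for direction. The 14 genes lower at all 3 induced times kept those calls wherever they were tested, except Col2a1 at D4 and Col6a1 at D16. With a filter of 5 FPKM the count of higher genes was 1 at D4, D8, D16 and in PN. With a pseudocount of 0.1 or no minimum change it was 7 at D8, with quantile normalization 2 at D16, and without D0 replicate 2 and PN replicate 3 it was 1 in PN. The count of genes lower at D16 than in PN was 4 with a pseudocount of 0.1, 2 with quantile normalization, 3 with no minimum change and 0 without D0 replicate 2 and PN replicate 3. The count lower at D8 than at D4 was 0 with no filter and with an equal FPKM total, and 2 with no minimum change and without D0 replicate 2 and PN replicate 3. The cause was not tested, apart from the stricter filter, which tests fewer genes, and the dropped minimum, which calls smaller changes.

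Leaving out each library in turn gave 3 to 5 higher and 13 to 16 lower at D4, 4 to 5 and 16 to 17 at D8, 4 to 5 and 14 to 16 at D16, 2 and 16 to 19 in PN, 11 to 14 higher and 1 to 2 lower for D16 against PN, and 0 to 3 lower for D8 against D4. Over all genes, dropping the minimum change gave 3694 higher and 3893 lower at D4 (1896 and 1991 with it), 4143 and 4197 at D8 (2164 and 2360), 4278 and 4497 at D16 (2319 and 2616), 3917 and 5150 in PN (2391 and 3339), and 4741 and 3937 for D16 against PN (2745 and 2095). For D8 against D4 it gave 167 higher (70 with it), and an equal FPKM total gave 39. For D16 against D8 the counts were 3 and 1, 43 and 29 without D16 replicate 1, and 8 and 3 without D8 replicate 1. The median of all genes in PN against D0, -0.12 in the values as deposited, was -0.01 with an equal total and 0.00 after quantile normalization. The replicate block gave the same collagen counts (16 lower at D16, 1 lower for D8 against D4) and changed no call of a collagen gene named in the text. Over all genes it gave 77 higher and 223 lower for D8 against D4, and 1 and 1 for D16 against D8. The block fits the same effect of each replicate number in all groups. It therefore does not model a pairing of D4 and D8 alone, and no fit with that pairing was run. The shallowest library has a relative depth of 0.707, which limits genes near 0 FPKM.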

Other observations

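Secreted and membrane proteins that carry collagen-like stretches without being named collagens were looked at as a list of 26 genes, chosen after the data had been seen. Of the 17 tested, 3 rose (16.6% of all genes tested rose) and 10 fell (18.7%) from D0 to D16. C1qtnf5, a short-chain protein of the retinal pigment epithelium, averaged 123 ± 34.6 FPKM (SD, n = 3) in D0 and 1.95 ± 1.63 at D16 (log2 change -5.57, limma adjusted p = 1.35e-08), and C1qtnf1 16.7 ± 10.6 and 0.195 ± 0.0560. Emilin1, an elastic fibre glycoprotein, averaged 7.16 ± 3.05 FPKM in D0 and 0.264 ± 0.180 at D16, while its relative Emilin2 rose from 0.628 ± 0.303 to 14.8 ± 3.46 (log2 change 3.27) and averaged 0.395 ± 0.0937 in PN. Eda, a membrane-bound ligand with a collagen stretch, rose from 2.89 ± 1.26 to 8.61 ± 0.399 FPKM. C1qtnf4 rose from 1.67 ± 0.744 to 6.06 ± 0.335 FPKM at D16 and averaged 58.0 ± 17.6 in PN. The complement genes C1qa, C1qb and C1qc fell. Separately, 6 microglial markers, of which C1qa is a member, summed to 1.11 to 18.3 FPKM in D0, 0.0219 to 0.935 at D16 and 5.55 to 10.5 in PN. Since C1qa is in both, the sum is no independent check, and whether microglia were present was not tested.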
